A study of Mus musculus with 9 samples.

Results

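The 9 genes described here encode complement components and acute-phase proteins: C1ra, C1s1, C2, C4a, C4b, C3, Cfb, Saa3 and Lcn2. They were followed in the mouse breast carcinoma line D2A1-d with and without knockdown of Med1. All 9 were found, through their Ensembl identifiers, among the 55335 genes that each library lists. The set was chosen by gene function with earlier results of the same libraries known, in which Saa3 was among the lowest genes with both hairpins. Its differences from the control are therefore a description and carry no test. Tests were run for the difference between the hairpins and for other genes of the same pathways. The first sets no control library against the hairpins, but all 9 libraries shared the filter, the scaling and the estimate of spread. The lists of other genes were also made with earlier results known, so their counts are a description too.

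Complement is a cascade of plasma proteins that tags and lyses cells and draws in leukocytes. Its classical branch starts when C1q binds a target and the attached proteases C1r and C1s cut C4 and C2, whose fragments then cleave C3, the protein on which all branches meet. The alternative branch uses factor B, the product of Cfb, in the place of C2. Acute-phase proteins are those whose production climbs in inflammation, above all in the liver. Serum amyloid A3 (Saa3) and lipocalin 2 (Lcn2), which keeps iron from bacteria by binding siderophores, are made outside the liver too. Transcription factors of the NF-kB, STAT3 and C/EBP families are known to drive many of these genes. Med1 is part of Mediator, which connects transcription factors with RNA polymerase II.

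There were 3 groups of 3 libraries. NTC cells carried a non-targeting hairpin and are given the genotype WT. The cells of the other groups carried hairpin shMed1 #2 or hairpin shMed1 #4 and are given the genotype Med1 Knockdown. All had been transduced and were grown in serum-containing medium with antibiotics, and no drug or cytokine treatment is listed. The sources used here do not say whether the cells of a group were a clone or a pool, or how long after transduction they were taken. The labels number the libraries as biological replicates and do not say that they came from separate cultures, so the spread behind each p-value is that of these libraries and may be technical.

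Library totals ran from 8123918 to 8879982 counts, and 13611 genes had enough counts to be tested. A count of 3 was worth 0.338 to 0.369 CPM (the count scaled to a common library size), so values near that level have little precision. Med1 stood at 85.6, 87.5 and 79.8 CPM in NTC, at 22.1, 25.2 and 24.7 CPM with hairpin #2 and at 25.02, 26.6 and 25.5 CPM with hairpin #4. That is a log2 fold change of -1.81 ± 0.0777 (SE) and -1.71 ± 0.0767. The defining epithelial markers Epcam, Krt5 and Cldn3 had no count in any library, although the line is labelled a carcinoma. The summed level of 11 epithelial markers, most of it from Krt18, was 64.4 to 65.6 CPM (of the library total) in NTC, 27.7 to 31.9 with shMed1 #2 and 50.7 to 61.0 with shMed1 #4. Krt18 and Krt8 were lower with both hairpins, while Elf3 was higher, at 5.45 to 7.18 CPM in NTC, 8.18 to 9.77 CPM with shMed1 #2 and 9.08 to 10.09 CPM with shMed1 #4. Mesenchymal markers (9 genes) summed to 4947 to 5096 CPM, 5655 to 5809 CPM and 5938 to 6099 CPM. In that list Vim and Sparc were higher with both hairpins, while Pdgfrb and Col1a2 were lower. Pdgfrb was at 71.8 to 85.3 CPM in NTC, 27.2 to 33.2 CPM with shMed1 #2 and 39.6 to 56.1 CPM with shMed1 #4. Fn1 was at 2133 to 2298 CPM in NTC, lower with shMed1 #2 (1873 to 1958) and higher with shMed1 #4 (2314 to 2497). Col1a1 was lower with shMed1 #2 and overlapped with NTC for shMed1 #4. Zeb1 and Twist1 overlapped between all groups.

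Other cells that make these proteins could be present in a culture. Of 12 hepatocyte markers none passed the filter, and Alb, Apoa1, Apoa2, Tat and Hnf4a were at 0 in all 9 libraries. Of 18 leukocyte markers 2 passed it. The leukocyte list summed to 19.2 to 21.05 CPM in NTC, 15.1 to 17.4 with shMed1 #2 and 15.8 to 16.9 with shMed1 #4. Its members Cd3e, Ms4a1, Adgre1, Itgam, S100a9 and Tyrobp were at 0 in every library. The endothelial list (8 genes) and the adipocyte list (6 genes) stayed at or below 1.44 and 0.470 CPM. The leukocyte and epithelial sums were lower with both hairpins, like most of the 9 genes, and their part in the results below was not tested. In such bulk RNA, fewer cells expressing a gene and less RNA per cell cannot be told apart.

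Some members share sequence or position with other genes, which bears on how far their counts can be separated. C1ra (chr6:124512405-124523443, plus strand) and C1s1 (chr6:124530345-124542359, minus strand) lie with C1rl, C1rb and C1s2 in 142973 bases. Of the 50-base words in the annotated transcripts of C1ra, 48.0% also occur in C1rb, and 21.8% of those of C1s1 occur in C1s2. The antisense gene Gm16567 overlaps 576 exonic bases of C1s1, 18.4% of them. C4b (chr17:34728380-34743882), C4a (chr17:34809092-34823464), Cfb (chr17:34856374-34862518) and C2 (chr17:34862604-34898265) lie on the minus strand within 169886 bases. C4a and C4b share 30.6% and 34.6% of their words with each other, and C4a is annotated as a processed transcript, not as protein coding. The read-through gene Gm20547 overlaps 79.5% of the exonic bases of Cfb and 42.8% of those of C2 on the same strand, and it had 0 counts in all 9 libraries. C3 (chr17:57203970-57228136, minus strand) and Lcn2 (chr2:32384633-32388252, minus strand) share no such word with another gene, and Saa3 (chr7:46711998-46715700, minus strand) shares 4.15%. All positions are on GRCm38 in the GENCODE M21 annotation.

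The 250 bases before the RefSeq start site (GRCm38.p6) were read for the 5 members that have an entry, C3, C1s1, C1ra, Saa3 and Lcn2. C1s1 has a second entry (chr6:124542322-124542571), which overlaps the window printed here, reaches 38 bases into exons and holds 1 C/EBP match instead of 2. The windows of 3 members that lay low together with both hairpins are printed 5′ to 3′ on the gene's strand, because they lie at most 24 bases into annotated exons. Those of C1ra and Lcn2 hold 216 and 197 exonic bases and are not printed. Capitals mark every match to the motifs searched on both strands: the C/EBP core TTNNGNAA, the kappaB motif, the GAS motif TTCNNNGAA, the ISRE motif, the TATA motif TATAAA and the nuclear receptor half-site AGGTCA.
C1s1, chr6:124542360-124542609, minus strand: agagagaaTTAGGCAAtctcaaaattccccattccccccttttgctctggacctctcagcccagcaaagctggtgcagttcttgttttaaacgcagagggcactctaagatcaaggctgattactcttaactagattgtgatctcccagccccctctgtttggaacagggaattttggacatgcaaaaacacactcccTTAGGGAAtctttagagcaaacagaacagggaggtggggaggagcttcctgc
C3, chr17:57228137-57228386, minus strand: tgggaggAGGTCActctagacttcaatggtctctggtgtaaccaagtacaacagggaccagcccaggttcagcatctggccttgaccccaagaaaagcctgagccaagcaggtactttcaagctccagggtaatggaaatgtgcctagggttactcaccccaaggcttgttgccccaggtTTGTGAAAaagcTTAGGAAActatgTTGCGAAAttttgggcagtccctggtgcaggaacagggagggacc
Saa3, chr7:46715677-46715926, minus strand: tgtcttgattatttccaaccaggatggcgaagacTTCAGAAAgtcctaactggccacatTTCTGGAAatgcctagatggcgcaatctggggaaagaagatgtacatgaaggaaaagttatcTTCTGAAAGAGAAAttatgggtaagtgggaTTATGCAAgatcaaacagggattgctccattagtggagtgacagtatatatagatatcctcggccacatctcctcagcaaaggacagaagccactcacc
The C/EBP core occurred 2 times in the printed C1s1 window, 3 times in that of C3 and 4 times in that of Saa3, and also 2 times for C1ra and 1 time for Lcn2. It is a loose motif that 36.8% of all 32851 windows hold. The ISRE motif, held by 2.98% of windows, occurred in the Saa3 window, where it overlaps a C/EBP match. The half-site, held by 14.0%, occurred in the C3 window. The kappaB, GAS and TATA letters, held by 3.90%, 7.02% and 12.4% of windows, were not in these 5 windows.

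With each hairpin, all 3 libraries lay below all 3 NTC libraries for 6 members, C1ra, C1s1, C2, C3, Saa3 and Lcn2, and above them for C4a. Over all tested genes that holds for 25.8% below and 25.7% above with shMed1 #2, and for 19.6% and 19.3% with shMed1 #4. Nothing is read from the members' count, because this contrast was known when they were chosen. Cfb and C4b did not pass the filter on low counts, and their groups overlapped. C4a passed it only through the hairpin groups, where it is higher. Both comparisons use the same NTC libraries.

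C1ra (ENSMUSG00000055172.10) encodes C1r, the protease that activates C1s. Its level was 81.7, 72.8 and 84.3 CPM in NTC, 34.5, 34.4 and 36.0 CPM with shMed1 #2, and 44.3, 51.5 and 48.5 CPM with shMed1 #4. The 3 groups did not overlap, and the shMed1 #2 libraries were the lowest. It was 2.28-fold lower with shMed1 #2 (log2 fold change -1.19 ± 0.0717 SE, 95% interval -1.33 to -1.05) and 1.66-fold lower with shMed1 #4 (-0.73 ± 0.0675, -0.86 to -0.59). With the counts of C1rb added, the values were -1.18 and -0.73.

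C1s1 (ENSMUSG00000038521.17) encodes the C1s protease, which cuts C4 and C2. It stood at 162, 158 and 172 CPM in NTC, 56.3, 58.4 and 59.9 CPM with shMed1 #2, and 68.7, 74.1 and 69.6 CPM with shMed1 #4. Again the groups were apart in the same order. It was 2.82-fold lower with shMed1 #2 (log2 fold change -1.50 ± 0.0563 SE, 95% interval -1.61 to -1.38) and 2.32-fold lower with shMed1 #4 (-1.22 ± 0.0545, -1.32 to -1.11). Its antisense partner Gm16567, named after its values were seen, had 53.6, 19.9 and 22.02 CPM on average in NTC, shMed1 #2 and shMed1 #4. All 576 exonic bases of Gm16567 lie in C1s1 exons, yet it had 157 to 486 counts a library. Gm20547, which overlaps Cfb and C2 on their own strand, had 0. Per kilobase of exon, Gm16567 had 93.1 CPM in NTC, beside 52.5 for C1s1, and its log2 fold changes were -1.43 and -1.28. The sources used here state neither the strand setting nor how reads that match several genes were counted. How well the reads of the shared bases were separated was not tested.

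C2 (ENSMUSG00000024371.14) encodes the component that C1s cuts and that joins C4b in the classical C3 convertase. It was expressed at 13.7, 12.3 and 14.1 CPM in NTC, 9.20, 9.75 and 7.15 CPM with shMed1 #2, and 10.6, 11.9 and 11.6 CPM with shMed1 #4. The highest shMed1 #4 library was close to the lowest NTC library. The log2 fold change was -0.62 ± 0.141 (SE, 95% interval -0.90 to -0.34) with shMed1 #2, and -0.24 ± 0.134 (-0.50 to 0.03) with shMed1 #4, an interval that includes 0. C2 also shares 161 exonic bases with Zbtb12 on the other strand, a gene named after its values were seen, with 184 to 320 counts a library.

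C4a (ENSMUSG00000015451.16), a copy of the C4 gene, was the member that lay higher with both hairpins, at a level of few counts. The libraries held 12, 15 and 6 counts in NTC, 33, 21 and 22 with shMed1 #2, and 17, 25 and 23 with shMed1 #4, which is 1.45, 1.81 and 0.695 CPM, then 3.79, 2.44 and 2.54 CPM, then 1.98, 3.01 and 2.67 CPM. The log2 fold change was 1.15 ± 0.337 (SE, 95% interval 0.48 to 1.82) with shMed1 #2 and 0.95 ± 0.344 (0.27 to 1.64) with shMed1 #4. It ranged from 0.84 without NTC replicate 3 to 1.44 without NTC replicate 2 for shMed1 #2, and from 0.64 to 1.24 for shMed1 #4 with the same libraries left out. Its near copy C4b (ENSMUSG00000073418.4), which encodes the mouse C4 protein, had 3, 3 and 5 counts in NTC, 0, 1 and 8 with shMed1 #2, and 3, 4 and 3 with shMed1 #4. With both copies summed, the log2 fold changes were 0.90 ± 0.297 and 0.74 ± 0.303. The sources used here do not say how reads that match both copies were counted.

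C3 (ENSMUSG00000024164.15) encodes the central component, whose cleavage every branch leads to. It was at 183, 191 and 201 CPM in NTC, 87.4, 87.4 and 96.0 CPM with shMed1 #2, and 81.6, 88.0 and 81.7 CPM with shMed1 #4. NTC was far above both hairpins, and the hairpin groups overlapped. C3 was 2.13-fold lower with shMed1 #2 (log2 fold change -1.09 ± 0.0517 SE, 95% interval -1.19 to -0.99) and 2.29-fold lower with shMed1 #4 (-1.20 ± 0.0524, -1.30 to -1.09).

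Cfb (ENSMUSG00000090231.10) encodes factor B, the protease of the alternative C3 convertase. It had 2, 5 and 3 counts in NTC, 4, 2 and 1 with shMed1 #2, and 4, 7 and 1 with shMed1 #4. No difference was detectable at this depth. Since 79.5% of its exonic bases also belong to Gm20547, the low counts are not read as low expression.

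**Figure D1:**
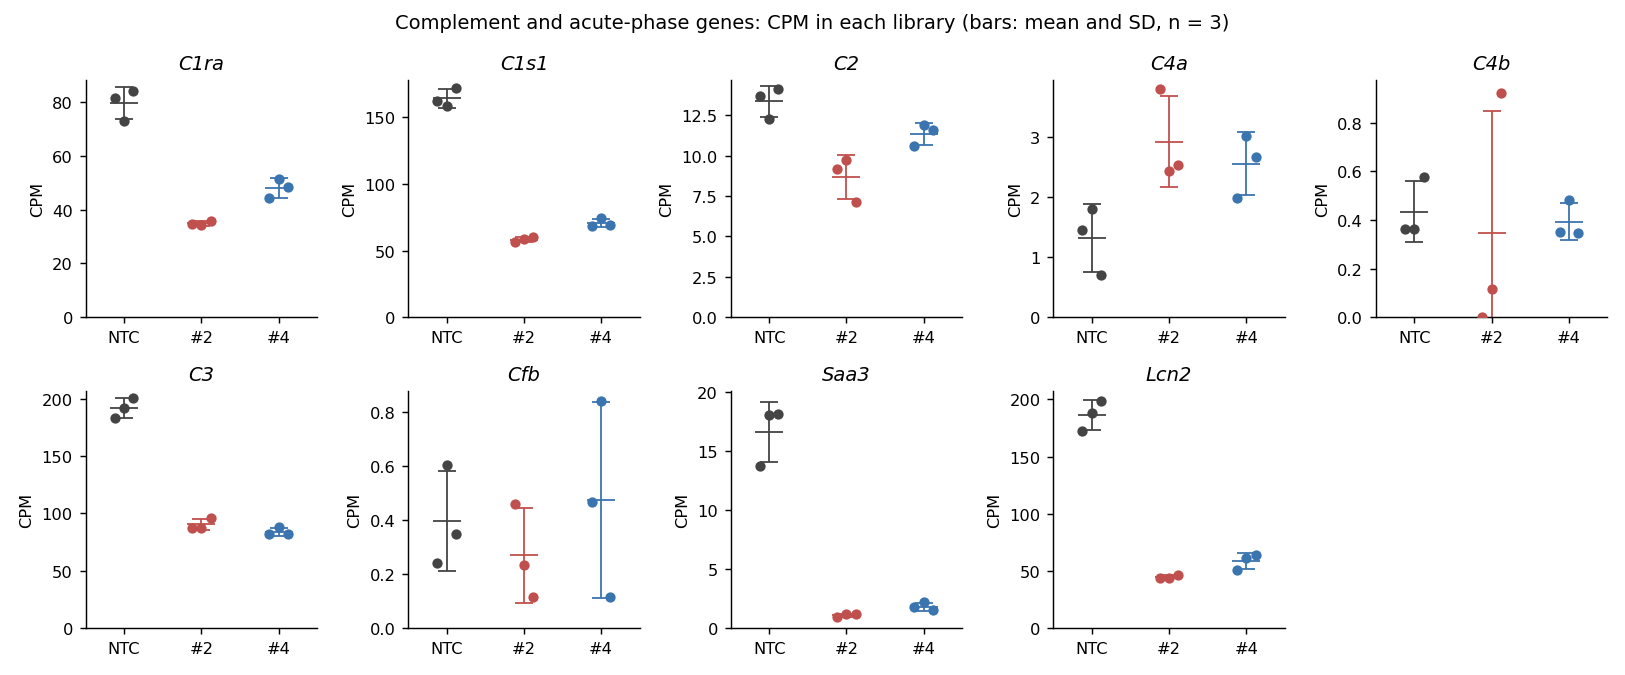
Each panel plots CPM (vertical axis, linear from 0) of 1 member in the 9 libraries: NTC in black, shMed1 #2 in red and shMed1 #4 in blue, with the group mean and SD (n = 3, bars that would pass below 0 are clipped). Saa3 is at 13.7 to 18.2 CPM in NTC and at 0.920 to 2.17 CPM with the hairpins, C4a is the member whose hairpin libraries lie above NTC, and C4b and Cfb stay below 1 CPM.

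Saa3 (ENSMUSG00000040026.8) encodes serum amyloid A3, an acute-phase apolipoprotein made by many tissues. It had 113, 150 and 157 counts in NTC, 8, 10 and 10 with shMed1 #2, and 15, 18 and 13 with shMed1 #4. In CPM that is 13.7, 18.1 and 18.2, then 0.920, 1.16 and 1.15, then 1.75, 2.17 and 1.51. The hairpin libraries kept a small share of the NTC level, and every shMed1 #4 library was above every shMed1 #2 library. Saa3 was 15.3-fold lower with shMed1 #2 (log2 fold change -3.93 ± 0.295 SE, 95% interval -4.52 to -3.35) and 9.18-fold lower with shMed1 #4 (-3.20 ± 0.240, -3.68 to -2.72), which are the widest differences among the 7 tested members.

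Lcn2 (ENSMUSG00000026822.14) encodes lipocalin 2. It stood at 172, 188 and 199 CPM in NTC, 43.8, 44.1 and 46.6 CPM with shMed1 #2, and 50.7, 61.5 and 63.8 CPM with shMed1 #4. The 3 groups did not overlap. It was 4.16-fold lower with shMed1 #2 (log2 fold change -2.06 ± 0.0649 SE, 95% interval -2.19 to -1.93) and 3.18-fold lower with shMed1 #4 (-1.67 ± 0.0615, -1.79 to -1.55).

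Per kilobase of exon, the order of the members was not the same in the 3 groups. In NTC, Lcn2 led with a mean level of 71.1 CPM per kb, followed by C1s1 (52.5), C3 (37.3), C1ra (26.7), Saa3 (6.39) and C2 (3.45), none of whose ranges overlapped with the next. With shMed1 #2 the levels of C1s1 (18.6), C3 (17.6) and Lcn2 (17.1) overlapped with their neighbours, C1ra followed at 11.7 CPM per kb, and Saa3 (0.414) lay below C2 (2.25) and beside C4a (0.471). With shMed1 #4 C1s1 (22.6) and Lcn2 (22.4) overlapped, as did C3 (16.3) and C1ra (16.1), and C2 (2.94) was above Saa3 (0.693). C4a, Cfb and C4b were the lowest in NTC, at 0.213, 0.141 and 0.0763 CPM per kb. The lengths include every exonic base, also the 42.8% of C2 and 79.5% of Cfb shared with Gm20547. C1ra, C1s1, C4a and C4b share sequence with near copies. Reads left out at such bases would lower a gene's value, so the order, also that of Saa3 and C2, is uncertain.

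The hairpins were then compared with each other. Of the 7 tested members, 4 were higher with shMed1 #4 than with shMed1 #2 by edgeR's quasi-likelihood test (Benjamini-Hochberg adjusted p under 0.05 over all genes), and 0 were lower. The background is 12.9% of all tested genes called higher and 13.1% called lower. C1ra differed by 0.46 ± 0.0761 on the log2 scale (SE, 95% interval 0.31 to 0.61, adjusted p = 9.83e-07), Lcn2 by 0.39 ± 0.0724 (0.24 to 0.53, 2.22e-05) and C1s1 by 0.28 ± 0.0613 (0.16 to 0.40, 0.000186). For these 3 genes, and for C2 and Saa3, all 3 shMed1 #4 libraries were above all 3 shMed1 #2 libraries, which holds for 18.9% of all tested genes (18.6% in the other direction). Med1 itself differed by 0.10 ± 0.0900 (adjusted p = 0.461).

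C2 differed by 0.39 ± 0.145 (SE, 95% interval 0.10 to 0.67, adjusted p = 0.0380), and this call rested on single libraries. The adjusted p was 0.253 without shMed1 #2 replicate 3, 0.106 without shMed1 #4 replicate 2 and 0.0914 without shMed1 #4 replicate 3, and it was 0.117 with DESeq2 and 0.0694 with no filter on low counts. For Saa3 the difference was 0.73 ± 0.358 (0.02 to 1.45, adjusted p = 0.114), which did not pass the test. For C3 it was -0.11 ± 0.0563 (-0.22 to 0.00363, adjusted p = 0.154), and for C4a -0.20 ± 0.282 (-0.76 to 0.36, adjusted p = 0.666). The members were listed with these libraries' results known, which applies to this comparison too.

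**Figure D2:**
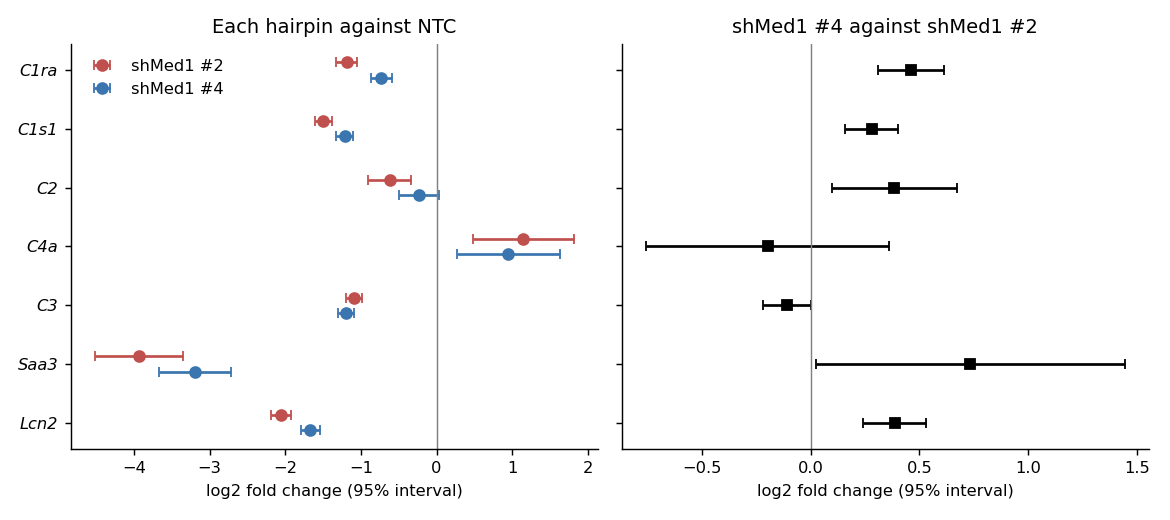
Log2 fold changes (horizontal axis) of the 7 tested members with their 95% intervals: on the left each hairpin against NTC (red, shMed1 #2; blue, shMed1 #4), on the right shMed1 #4 against shMed1 #2 on its own scale. On the left 6 members lie left of 0 and C4a lies right of it, with the interval of C2 for shMed1 #4 reaching 0.03; on the right C1ra, C1s1, C2, Saa3 and Lcn2 lie right of 0.

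For each tested member the protein-coding genes whose centred log2 CPM over the 9 libraries was nearest were listed, by root mean square (RMS) difference. Nearest to C3 were Mmp10 (RMS difference 0.0726) and Crebrf (0.113). C1ra had Hmgcs1 (0.0658) and Bcat2 (0.0781), C1s1 had Hcfc1r1 (0.0898) and Ngef (0.125), and C2 had Proser3 (0.102) and Polr2i (0.105). For Lcn2 they were Gdpd5 (0.141) and Med1 (0.167). Saa3 was matched less closely, by Perp (0.308) and Enpp2 (0.410), and C4a by Cacnb4 (0.218) and Eif4e3 (0.288). None of these genes is in the lists of complement, acute-phase or upstream genes used here.

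Other genes of the pathways were taken from 9 lists of 158 genes, of which 85 were tested. The lists were made with earlier results of these libraries known, so no shift of a pathway is read from their counts. With shMed1 #2, 39 were lower than in NTC and 5 higher, beside 21.9% and 21.8% of all tested genes, and their median log2 fold change was -0.19 (all genes, -0.00346). With shMed1 #4, 29 were lower and 9 higher, beside 14.1% and 14.0% of all genes, with a median of -0.12 (all genes, 0.000855). Between the hairpins, 26 were higher with shMed1 #4 and 7 lower, beside 12.9% and 13.1% of all tested genes. The number lower was 4 without shMed1 #2 replicate 2, and 4 with scaling by library size alone. The calls are by the same test, and each pair of values after a gene's name below is the log2 fold change with shMed1 #2, then with shMed1 #4.

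Of 15 other genes of complement initiation, 6 were tested and the rest did not pass the filter on low counts. The C1q genes C1qa, C1qb and C1qc, named after their values were seen, had 0 counts in all 9 libraries. With shMed1 #2, 4 fell and 0 rose (all tested genes, 21.9% and 21.8%), with a median of -0.75. With shMed1 #4, 1 fell and 1 rose (all tested genes, 14.1% and 14.0%), with a median of -0.48. C1s2, the second copy of the C1s gene, was at 9.82, 8.68 and 9.61 CPM in NTC, 3.10, 3.13 and 5.07 CPM with shMed1 #2, and 4.65, 6.26 and 5.80 CPM with shMed1 #4. All hairpin libraries were below all NTC libraries, and it fell with each (-1.31 ± 0.195, adjusted p = 9.16e-09; -0.75 ± 0.176, adjusted p = 0.000410). Fcna, a ficolin that starts the lectin branch, fell with shMed1 #2 (-1.17, adjusted p = 0.000461), and its value with shMed1 #4 was -0.66 (adjusted p = 0.0557, under the threshold at 0.0228 without NTC replicate 2). C1rl, related to C1r, fell with shMed1 #2 (-0.49, adjusted p = 0.00136) and was at -0.30 (0.0771) with shMed1 #4. C1rb fell with shMed1 #2 (-1.003, adjusted p = 0.0278), a call that was lost without NTC replicate 1 (0.0523) or 3 (0.119) and without shMed1 #2 replicate 1 (0.0861) or 2 (0.0841). It passed the filter on low counts only through NTC, where it is high, and the call was also lost with no filter (0.0548) and with DESeq2 (0.103). Of the lectin-branch proteases, Masp2 did not pass the test (-0.08 and -0.05). Masp1 rose with shMed1 #4 (0.17, adjusted p = 0.0164), which was lost without NTC replicate 2 (0.0511) or shMed1 #4 replicate 2 (0.0815).

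In the alternative and terminal part, 2 of 9 genes were tested, and neither passed the test with either hairpin: Cfp, which encodes properdin (-0.43 and -0.25), and C8g (-0.16 and 0.25). Among 21 genes listed with the complement regulators 6 were tested, of which 2 fell and 1 rose with each hairpin. Of all tested genes 21.9% fell and 21.8% rose with shMed1 #2, and 14.1% and 14.0% with shMed1 #4. Clu, the gene of clusterin, an inhibitor of the terminal complex, was at 7.51, 8.56 and 9.15 CPM in NTC, 1.49, 0.697 and 1.84 CPM with shMed1 #2 and 3.26, 3.01 and 2.09 CPM with shMed1 #4. It fell with both (-2.63 ± 0.287, adjusted p = 2.03e-15; -1.59 ± 0.225, adjusted p = 3.07e-09). Cd109 rose (0.84 and 0.78, adjusted p = 8.62e-10 and 2.41e-08), and its place in this list does not show that it regulates complement. Csmd3 fell with shMed1 #2, where it had 0, 1 and 4 counts against 9 to 25 in NTC (-3.41 ± 0.744, adjusted p = 1.95e-07), and was at 0.43 (0.314) with shMed1 #4. It passed the filter through the other groups, and with no filter the adjusted p for shMed1 #2 was 2.75e-09. Cr1l, related to the complement receptor genes, fell with shMed1 #4 by little (-0.17, adjusted p = 0.0485), and this call was lost with DESeq2 (0.139), without shMed1 #4 replicate 3 (0.369) and without any NTC library, shMed1 #2 replicate 2 or 3, or shMed1 #4 replicate 1 (0.0513 to 0.126). Cd46 and Cd59a did not pass the test, and were at 1.08 and 1.35 CPM on average in NTC, beside 63.5 CPM for Cr1l.

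Of the 10 complement receptor genes, 3 were tested. Itgam and Itgax of this list, named after their values were seen, had 0 counts in all 9 libraries. Itgb2, the beta chain of the complement receptors 3 and 4 and a gene of leukocytes, was low at 3.03, 3.86 and 3.71 CPM in NTC, 1.26, 0.464 and 0.922 CPM with shMed1 #2, and 0.698, 1.203 and 1.04 CPM with shMed1 #4. It fell with both (-1.98 and -1.84, adjusted p = 6.72e-07 and 5.09e-06). It passed the filter only through NTC, where it is high, and with no filter the adjusted p was 1.64e-07 and 1.90e-06. The summed leukocyte markers, most of that sum being Csf1r, were lower with both hairpins too, as given above. C1qbp, the C1q binding protein, did not pass the test with either hairpin (0.09 and -0.08), nor did Cd93 (0.44 and -0.19).

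The list of acute-phase and iron-withholding proteins held 36 genes, of which 13 were tested. With shMed1 #2, 9 fell and 1 rose (all tested genes, 21.9% and 21.8%), with a median of -0.38. With shMed1 #4, 7 fell and 2 rose (all tested genes, 14.1% and 14.0%), with a median of -0.11. Ceruloplasmin (Cp), the copper-carrying ferroxidase, was the most changed of the named ones, with 703, 663 and 684 CPM in NTC, 166, 151 and 173 CPM with shMed1 #2, and 308, 330 and 310 CPM with shMed1 #4. Its 3 groups were far apart (-2.07 ± 0.0448, adjusted p = 3.45e-55; -1.11 ± 0.0425, adjusted p = 8.64e-37), and it was higher with shMed1 #4 than with shMed1 #2 (0.95 ± 0.0461, adjusted p = 9.79e-31). The metallothioneins Mt1 (-0.57 and -0.29) and Mt2 (-0.61 and -0.27) fell with both hairpins, as did the ferritin light chain Ftl1 (-0.38 and -0.31). Tfrc, the transferrin receptor, went opposite ways: it fell with shMed1 #2 (-0.43, adjusted p = 2.84e-14) and rose with shMed1 #4 (0.17, adjusted p = 0.00102). The difference between the hairpins was 0.60 ± 0.0426 (adjusted p = 1.28e-20).

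The ferritin heavy chain Fth1 fell by little (-0.12, adjusted p = 0.0120; -0.10, adjusted p = 0.0475). Without NTC replicate 3 these were 0.311 and 0.559, and without shMed1 #2 replicate 3, 0.0638 and 0.0614. The second call was also lost with the replicate block (0.0712), with DESeq2 (0.112), without shMed1 #4 replicate 3 (0.215) and without shMed1 #2 replicate 2 (0.0560).

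Of 7 receptors for Lcn2 and serum amyloid A, 4 were tested. The SAA receptor Tlr2 fell with both hairpins (-0.43 and -0.62, adjusted p = 0.000517 and 3.00e-06), and Tlr4 and Scarb1 did not pass the test, except Scarb1 with shMed1 #4 when its replicate 3 was left out (adjusted p = 0.0387). The Lcn2 receptor gene Slc22a17, near 1 CPM in NTC, was higher with shMed1 #4 than with shMed1 #2 (2.08 ± 0.524, adjusted p = 0.000236). It passed the filter only through shMed1 #4, where it is high, and with no filter the adjusted p of that difference was 0.000286. Its rise with shMed1 #4 against NTC (1.00, adjusted p = 0.0455) was lost without any 1 of the 6 libraries compared (0.0516 to 0.175). That call was also lost with no filter (0.0951), with DESeq2 (0.176) and with scaling by library size alone (0.0527).

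**Figure D3:**
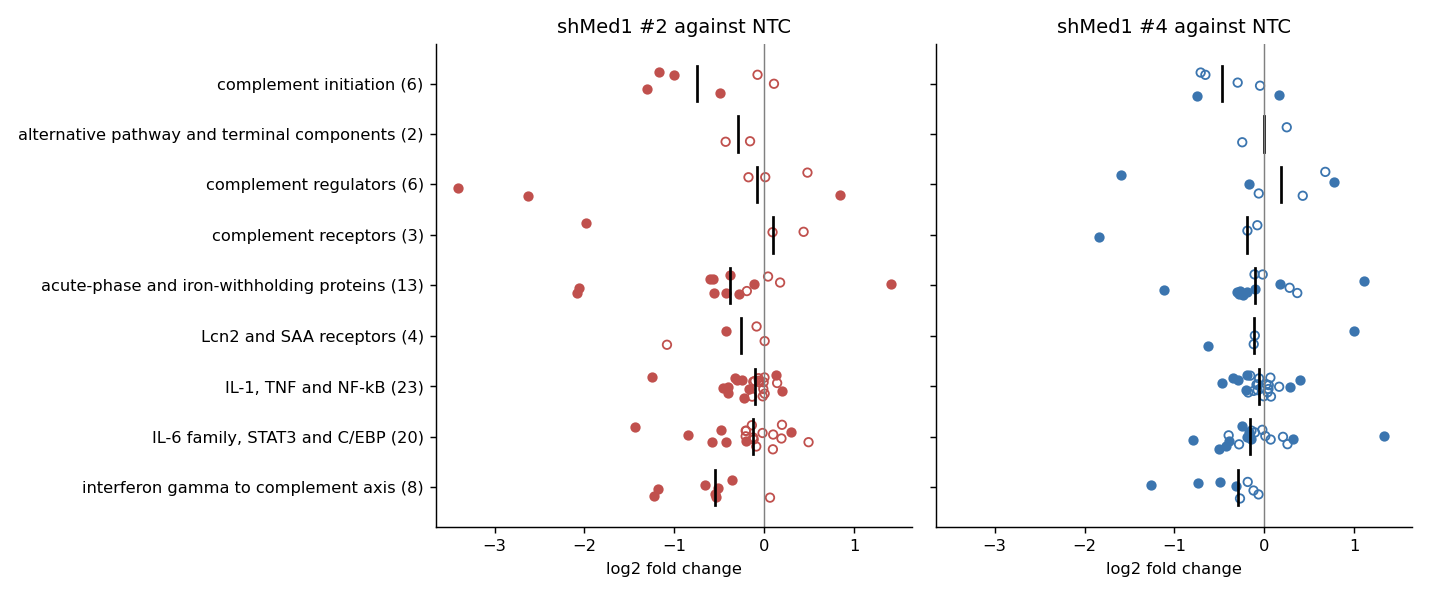
Log2 fold change (horizontal axis) of each tested gene of the 9 lists (number tested in brackets), on the left with shMed1 #2 and on the right with shMed1 #4, against NTC. Filled points passed the test at an adjusted p under 0.05, open points did not, and the black bar is the list's median. The list labelled interferon gamma to complement axis has its median at -0.54 on the left and -0.29 on the right. It also holds genes of the type I receptor (Ifnar1, Ifnar2) and of ISGF3 (Irf9).

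Upstream of these genes, 23 of 27 genes of the interleukin-1, TNF and NF-kB list were tested. With shMed1 #2, 9 fell and 2 rose (all tested genes, 21.9% and 21.8%), with a median of -0.11. With shMed1 #4, 5 fell and 2 rose (all tested genes, 14.1% and 14.0%), with a median of -0.06. Rela, the p65 subunit of NF-kB, was at 132, 135 and 126 CPM in NTC, 98.1, 99.9 and 98.0 CPM with shMed1 #2 and 102, 99.9 and 106 CPM with shMed1 #4, and it fell with both (-0.41 and -0.35, adjusted p = 1.79e-10 and 4.24e-08). Nfkb1 fell as well (-0.25 and -0.29), and Nfkb2 did not pass the test (-0.06 and -0.06). Chuk, the IKK alpha kinase, fell with shMed1 #2 (-0.41, adjusted p = 2.05e-09) and was at 0.05 (0.579) with shMed1 #4. Nfkbiz, whose product IkB zeta is known to be needed for Lcn2 induction, fell with shMed1 #2 (-0.31, adjusted p = 3.24e-06) and was at -0.12 (0.0994) with shMed1 #4, where scaling by library size alone gave 0.0406. Irak1 rose slightly with shMed1 #2 (0.13, adjusted p = 0.0378), a call lost with library size alone (0.221), without shMed1 #2 replicate 3 (0.174) and without NTC replicate 1, 2 or 3 (0.0524 to 0.113). DESeq2 (0.0753) and no filter (0.0698) lost it too.

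Of 24 genes of the interleukin-6, STAT3 and C/EBP list, 20 were tested. With shMed1 #2, 6 fell and 1 rose (all tested genes, 21.9% and 21.8%), with a median of -0.13. With shMed1 #4, 8 fell and 2 rose (all tested genes, 14.1% and 14.0%), with a median of -0.16. Cebpb, which encodes the factor C/EBP beta, was at 117, 131 and 128 CPM in NTC, 50.01, 41.8 and 46.2 CPM with shMed1 #2, and 67.7, 61.0 and 87.5 CPM with shMed1 #4. Its groups did not overlap. It fell with both hairpins (-1.44 ± 0.131, adjusted p = 1.55e-05; -0.79 ± 0.121, adjusted p = 0.00108) and was higher with shMed1 #4 than with shMed1 #2 (0.65 ± 0.138, adjusted p = 0.00798). Cebpd, named after its values were seen, had -0.85 and -0.25 (adjusted p = 3.40e-15 and 0.00852). The kinase gene Jak1 did not pass the test (-0.02 and -0.02), and neither did Stat3, also named after its values were seen (0.09 and 0.01). Il6st, the shared gp130 receptor chain, fell with shMed1 #4 (-0.18, adjusted p = 0.00316) and was at -0.09 (0.122, and 0.0138 with library size alone) with shMed1 #2. The fall of Pias3 with shMed1 #2 (-0.21, adjusted p = 0.0119) was lost without NTC replicate 3 (0.0825). That of Clcf1 with shMed1 #4 (-0.19, adjusted p = 0.0209) was lost without NTC replicate 1 (0.0706) or 2 (0.258) and without shMed1 #4 replicate 1 (0.137) or 2 (0.112). That of Cebpg with shMed1 #4 (-0.15, adjusted p = 0.0402) was lost without NTC replicate 1 (0.134) or 2 (0.126) and without any shMed1 #4 library (0.0536 to 0.101). Both calls with shMed1 #4 were also lost with DESeq2 (Clcf1, 0.0863, and Cebpg, 0.105), and that of Cebpg with no filter (0.0817).

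The interferon list held 9 genes, of which 8 were tested. With shMed1 #2, 7 fell and 0 rose (all tested genes, 21.9% and 21.8%), with a median of -0.54. With shMed1 #4, 4 fell and 0 rose (all tested genes, 14.1% and 14.0%), with a median of -0.29. Irf9, the DNA-binding part of the ISGF3 complex, was at 25.3, 22.1 and 31.5 CPM in NTC, 10.1, 11.3 and 12.3 CPM with shMed1 #2, and 8.96, 10.95 and 12.98 CPM with shMed1 #4, and it fell with both (-1.23 ± 0.127, adjusted p = 2.46e-13; -1.26 ± 0.128, adjusted p = 3.54e-13). The type I receptor chains Ifnar1 (-0.36 and -0.32) and Ifnar2 (-0.66 and -0.50) fell with both hairpins too. Irf1, which interferon gamma induces, fell with shMed1 #2 (-0.52, adjusted p = 1.87e-08), was at -0.12 (0.229) with shMed1 #4, and differed between them by 0.40 ± 0.0775 (adjusted p = 2.78e-05). Ifngr2, a chain of the interferon gamma receptor, had the same form (-0.55, adjusted p = 1.04e-06; -0.07, adjusted p = 0.642; between the hairpins 0.48, adjusted p = 3.75e-05). The other chain, Ifngr1, did not pass the test against NTC (0.06 and -0.19).

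**Figure D4:**
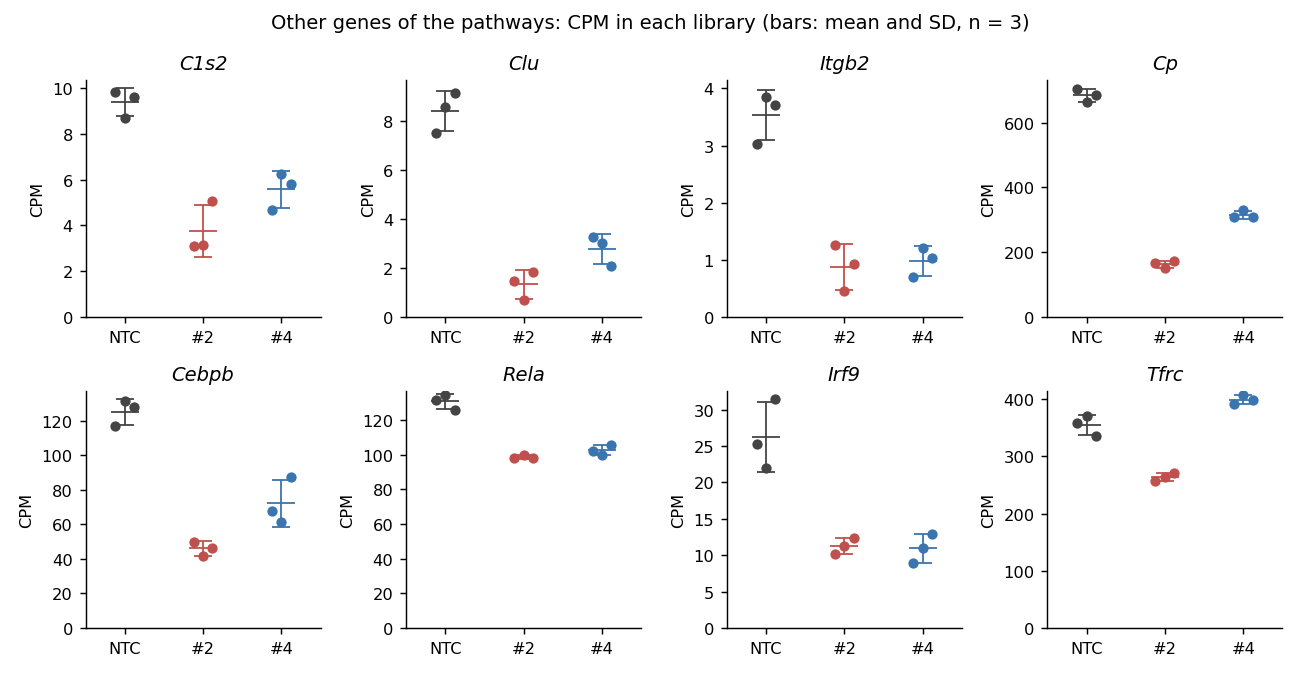
CPM (vertical axis, linear from 0) of 8 pathway genes in the 9 libraries, with the group mean and SD (n = 3): NTC in black, shMed1 #2 in red, shMed1 #4 in blue. Cp is at 151 to 173 CPM with shMed1 #2 and 308 to 330 CPM with shMed1 #4, below 663 to 703 CPM in NTC, and Tfrc lies below NTC with shMed1 #2 and above it with shMed1 #4.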

How the data were processed

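Total RNA of 9 samples of D2A1-d cells was sequenced on a BGISEQ-500 instrument, per the labels. The authors deposited raw counts per gene, 1 file a library. The submitters' processing notes name STAR and HTSeq and the build GRCm38 (mm10). The sources used here do not give versions, annotation release or strand setting. Of 55335 identifiers, 54587 matched GENCODE M21 with their version and 55154 without it. No line named no gene (0).

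Genes were kept by filterByExpr and scaled by TMM (factors 0.982 to 1.02), and CPM use the scaled library sizes. Marker sums use library totals. edgeR 4.0.16 in R 4.3.3 fitted 1 coefficient per group over all 9 libraries (robust quasi-likelihood test, Benjamini-Hochberg over 13611 genes, called at an adjusted p under 0.05). The common biological coefficient of variation was 3.68%. Within groups, library pairs differed beyond sampling error, with a chi-square over its degrees of freedom of 1.54 to 2.49.

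Members and lists were chosen with earlier results of these data known. Named were the 9 members, Med1, up to 6 tested genes per list with the highest mean log2 CPM (prior count 2), and the 2 protein-coding genes nearest in pattern to each tested member (mean of at least 1 log2 CPM). A few listed genes are counted but not reported here by name. Other named genes are marked as chosen after their values were seen. Alternatives, 19 in number, were scaling by RLE, by the upper quartile or by library size alone, no filter, a stricter filter (1 CPM and 10 counts in 3 libraries), DESeq2 1.42.0, no robust option, only the groups compared, a replicate block, near copies summed, and each library left out. Figures were drawn with matplotlib 3.10.9.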

Additional observations from a re-analysis of the deposited data

Results flagged for a closer look

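The difference between the hairpins passed the test of that difference itself for 4 members. All 4 were called higher with shMed1 #4, as were 12.9% of all tested genes. For these and for Saa3, which did not pass, all 3 shMed1 #4 libraries lay above all 3 shMed1 #2 libraries. That holds for 18.9% of all tested genes, and the members were listed with results known. On the log2 scale the difference was 0.46 for C1ra, 0.39 for Lcn2 and 0.28 for C1s1. For C2 it was 0.39, with the limits given above. Med1 was at 24.0 CPM on average with shMed1 #2 and at 25.7 CPM with shMed1 #4, and its difference did not pass the test.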

How the results depend on the processing

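Under the 19 alternatives, none of the 266 fold changes of the members against NTC changed sign (0). None moved by more than 1 SD (0), taken as the larger SD of log2 CPM within the groups compared. Leaving out a library moves a group mean by less than that group's SD, so those settings could hardly exceed this limit. The fold change of C4a with shMed1 #2 ran from 0.84 to 1.44. Of 3353 values of other named genes, 99 were no longer called and 15 became called. The sign changed in 41, and 0 of these were called with or without the alternative. The number of genes called ran from 4903 to 6138 for shMed1 #2 against NTC, from 2815 to 3878 for shMed1 #4 and from 2524 to 3566 between the hairpins. Between the hairpins, the pathway genes called lower with shMed1 #4 numbered 7 of 85, beside 13.1% of all tested genes, and were 4 with library size alone. They were 4 to 7 when a library was left out, the lowest without shMed1 #2 replicate 2. The difference of C2 between the hairpins was 0.38 with no filter (adjusted p = 0.0694) and 0.38 with DESeq2 (0.117), and 0.26 to 0.47 when a library was left out. That of C4a became 0.03 without shMed1 #2 replicate 1, and was never called.

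Equal replicate numbers did not go with shared deviations (correlations -0.0413 to 0.0416), so the numbers were not taken as pairs. The replicate block ended 1 call of a named gene, that of Fth1 with shMed1 #4, and no other. With it, 5892 genes were called for shMed1 #2 against NTC, against 5947 without it. Members at a few counts, C4a, C4b and Cfb, are limited by depth.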
